A study of Mus musculus with 17 samples.

Results

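The 28 genes described here encode the enzymes that build cholesterol and the proteins that control its synthesis or move it through the cell, most of them targets of the transcription factor SREBP2. They were given as a list of mouse gene symbols, and all 28 were found by gene ID among the 46073 genes of the table. They were ordered by role into 8 enzymes of the mevalonate and isoprenoid steps, 11 enzymes from squalene to the sterols, 4 genes of SREBP2 control and 5 genes of sterol transport and turnover.

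Cholesterol is made from acetyl-CoA through mevalonate, isoprenoid diphosphates, squalene and lanosterol. When sterol in the endoplasmic reticulum runs low, the escort protein SCAP carries SREBP2 to the Golgi, where it is cut and its free part enters the nucleus and switches on the genes of the pathway; when sterol is plentiful, INSIG proteins hold SCAP back. The liver is a main site of cholesterol synthesis, and its hepatocytes use the product for bile acids and lipoproteins.

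RNA was sequenced from 17 livers of male C57BL/6 mice aged 11 or 12 weeks, killed 24 h after acetaminophen (APAP, a painkiller that injures hepatocytes around the central vein at high dose) or saline. The labels give the genotype at Nampt, which encodes the enzyme that limits the salvage of NAD, as Nampt +/+ (WT here), Nampt +/- (Het) or Nampt OE (OE, an abbreviation left unexplained, with no promoter or construct given). With saline there were 3 WT, 2 Het and 2 OE livers, and with 200 mg/kg APAP 3 WT, 3 Het and 2 OE livers. A further WT liver received saline labelled IG, and a further OE liver received 300 mg/kg APAP. WT saline 1, WT saline 2, OE APAP 2 and the OE liver at 300 mg/kg were aged 12 weeks and the others 11. Age was in no model. Routes are given as IP or IG, without saying which mouse had which, apart from that 1 liver. Perfused livers were run in sequencing lanes 7 and 8 and non-perfused livers in lanes 4, 5 and 6. The question that these groups address is how Nampt bears on liver injury by APAP.

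Nampt itself did not follow all labels. It was at 17.1 ± 1.54 FPKM (SD, n = 3; FPKM divide a gene's fragments by its length and by the depth of its library) in the WT saline livers and at 24.5 ± 2.10 (n = 2) in the Het saline livers, whose 2 values lay above all 3 WT values. It was at 24.8 ± 3.42 (n = 2) in OE saline, 13.2 ± 3.12 (n = 3) in WT APAP, 13.9 ± 2.30 (n = 3) in Het APAP, and at 18.5 and 36 FPKM in the 2 OE APAP livers. The WT liver given saline labelled IG was at 23.4 FPKM, between the 2 Het saline values of 23.0 and 26.0. The OE liver given 300 mg/kg was at 18.2 FPKM. The names WT, Het and OE below are therefore those of the labels. No label names the animal of each library, so p-values here measure no more than the sample-to-sample spread, which may be technical. In bulk liver, fewer cells of a type and less RNA per cell cannot be told apart.

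Some livers stood apart from their groups in genes outside the list. Summed over 8 acute phase genes, such as Saa1 and Hp, the liver labelled OE APAP 1 had 2281 FPKM, inside the saline range of 1931 to 3675, whereas the other 8 APAP livers had 5032 to 20333. Summed over 8 pericentral hepatocyte genes, such as Glul and Cyp2e1, the liver labelled OE saline 1 had 1273 FPKM against 2577 to 5016 in the other saline livers. Of the 8 hepatocyte markers, 7 could be read in all livers, the eighth being removed as a failed estimate, and their summed level was between 6179 and 14880 FPKM. The acute phase level of OE APAP 1 and the pericentral level of OE saline 1 go against their treatment labels, while the pericentral level of OE APAP 1, 1427 FPKM, was below all saline livers but OE saline 1. Whether labels were exchanged was not tested, and every statement on APAP in OE below rests on the labels.

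FPKM are scaled for transcript length, so levels can be compared between genes. Fdps, which makes farnesyl diphosphate, had the highest median of the 28 genes over the 17 livers, at 372 FPKM, followed by Sc5d (292), a late sterol desaturase, and Insig1 (225). The lowest medians were those of Mylip (3.05), a ubiquitin ligase that degrades lipoprotein receptors, Ggps1 (3.08), which makes geranylgeranyl diphosphate, and Srebf2 (3.33), which encodes SREBP2. The RNA of Srebf2 thus had a lower median than that of every enzyme gene of the list but Ggps1. For genes this low the scale log2(FPKM + 1) understates change.

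The main pattern across the 17 livers was that 2 OE livers, OE APAP 1 and OE saline 2, were far below the rest. Both were non-perfused and run in lane 4. Of the 28 genes, 19 were lowest in OE APAP 1, where 7.94% of all 11034 genes tested were lowest, and 18 were below every other liver in both, against 4.82% of all genes tested. These livers were singled out after their values were seen, so the counts describe them and are no test. The median of the 28 genes, as log2(FPKM + 1) minus each gene's mean over the 17 livers, was -1.61 in OE APAP 1 and -1.09 in OE saline 2. In the other 15 livers that median was between -0.26 and 0.52, and the median over all genes tested was 0.01 in OE APAP 1 and 0.02 in OE saline 2.

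**Figure D1:**
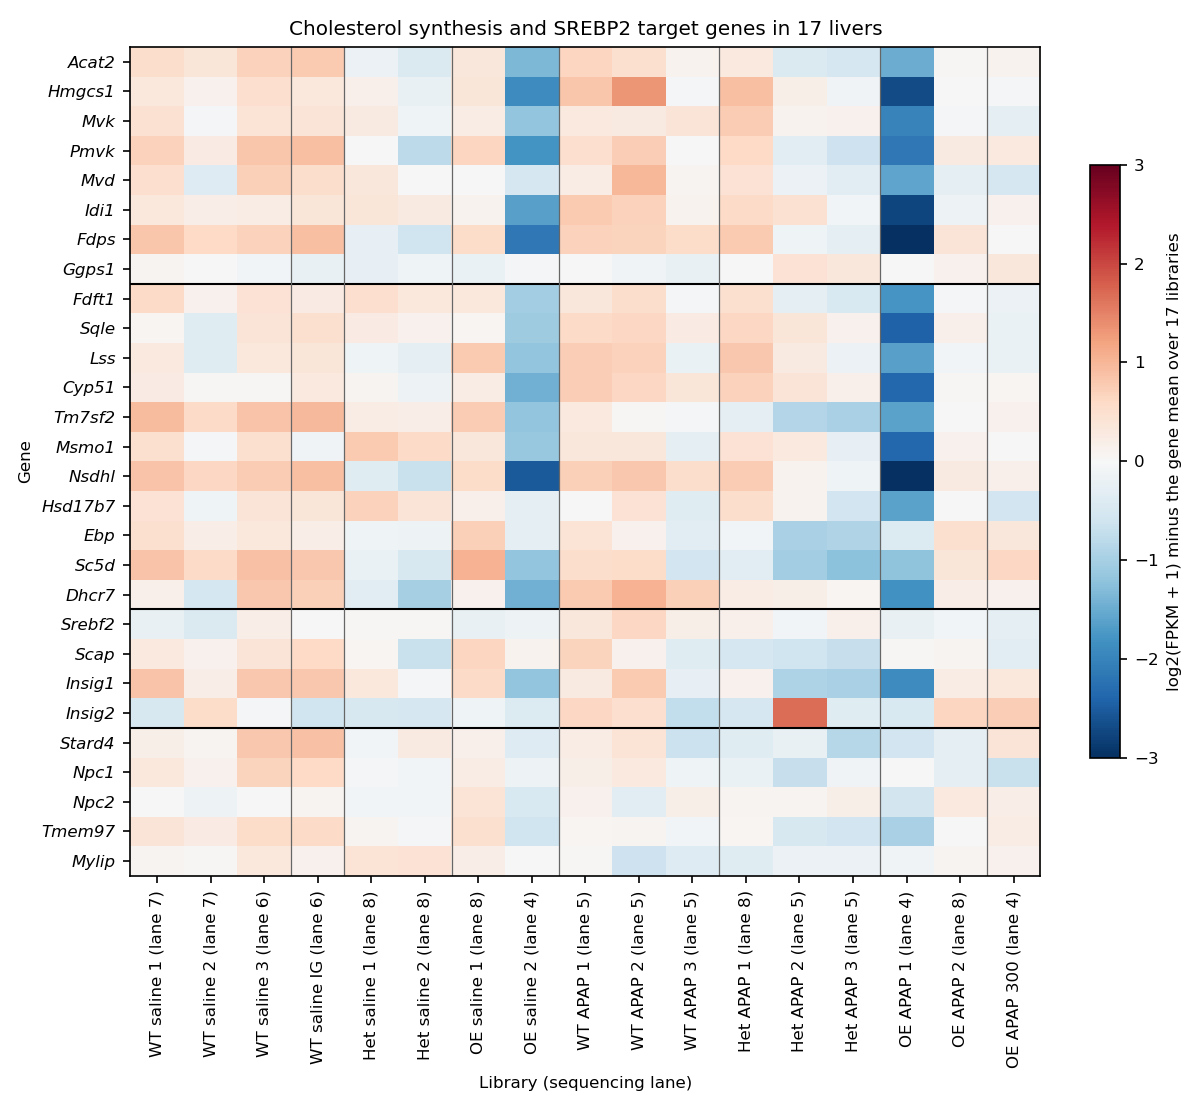
Each cell gives log2(FPKM + 1) minus the gene's mean over the 17 livers, for the 28 genes (rows, in 4 blocks by role: mevalonate and isoprenoid enzymes, squalene to sterol enzymes, SREBP2 control, transport and turnover) in each liver (columns, with the sequencing lane). Blue is below and red above the gene's mean; colours end at -3 and 3, and 2 columns, OE saline 2 and OE APAP 1, are blue for most enzymes and pale for Ggps1, Srebf2, Scap and Npc1.

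In the mevalonate steps, 7 of the 8 genes were lowest in these livers. Hmgcs1, which makes HMG-CoA (chromosome 13, 119690379 to 119708260, GRCm38), was at 22.5 FPKM in OE APAP 1 and 40.0 in OE saline 2, against a lowest value of 130, a median of 170 and a highest of 379 in the other 15 livers. Idi1, the isopentenyl diphosphate isomerase (chromosome 13, 8885501 to 8892451), was at 12.6 and 28.7 FPKM against 81.3, 110 and 156. Fdps (chromosome 3, 89093588 to 89101959) was at 26.7 and 56.8 FPKM against 167, 372 and 474, so that its median in the other livers was 13.9 times the level in OE APAP 1 and 6.55 times that in OE saline 2. Neither liver overlapped the rest in any of these genes. The other enzymes lay lower too: Pmvk, the phosphomevalonate kinase, was at 8.76 and 11.5 FPKM against at least 24.0, and Mvk, the mevalonate kinase, at 3.20 and 6.46 against at least 13.0. Acat2, an acetyl-CoA acetyltransferase, was at 9.96 and 11.0 FPKM against at least 20.6. Mvd, the mevalonate diphosphate decarboxylase, was the least separate, since its 9.88 FPKM in OE saline 2 was next to a lowest value of 9.93 elsewhere, while OE APAP 1 held 4.14. Ggps1 was the exception among these 8 genes, at 3.08 and 2.93 FPKM, near its median of 3.08 in the others.

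From squalene to the sterols, 8 of 11 genes were below every other liver in both OE APAP 1 and OE saline 2. Nsdhl, a sterol dehydrogenase of the demethylation steps (chromosome X, 72918557 to 72958514), showed the widest gap of the 28 genes: 1.80 and 3.97 FPKM against a lowest value of 16.9, a median of 40.5 and a highest of 51.9. The median elsewhere was 22.5 times the level in OE APAP 1 and 10.2 times that in OE saline 2. Cyp51, the lanosterol demethylase (chromosome 5, 4081145 to 4104746), was at 12.5 and 24.3 FPKM against 60.3, 79.6 and 114. Sqle, the squalene epoxidase, was at 7.0 and 19.6 FPKM against 32.2, 49.6 and 65.7. Msmo1, the sterol methyl oxidase, was at 27.3 and 65.6 FPKM against 119, 183 and 249. All of these were lower in OE APAP 1 than in OE saline 2. Fdft1, the squalene synthase, was at 12.8 and 21.8 FPKM against at least 33.2, and Lss, the lanosterol synthase, at 10.03 and 14.1 against at least 25.6. Tm7sf2, a sterol reductase, was at 13.5 and 18.4 FPKM against at least 21.8, and Dhcr7, which makes cholesterol from its last precursor, at 6.20 and 8.33 against at least 11.8. These made up the 8. The remaining enzymes were Hsd17b7, lowest in OE APAP 1 (5.53 FPKM) but within the others' range in OE saline 2 (15.5), Ebp, at 77.7 and 83.9 FPKM within a range of 52.3 to 171, and Sc5d. Sc5d was at 97.0 and 99.6 FPKM in these livers, near the 95 and 109 of Het APAP 3 and Het APAP 2, and at 152 or more in the rest.

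**Figure D2:**
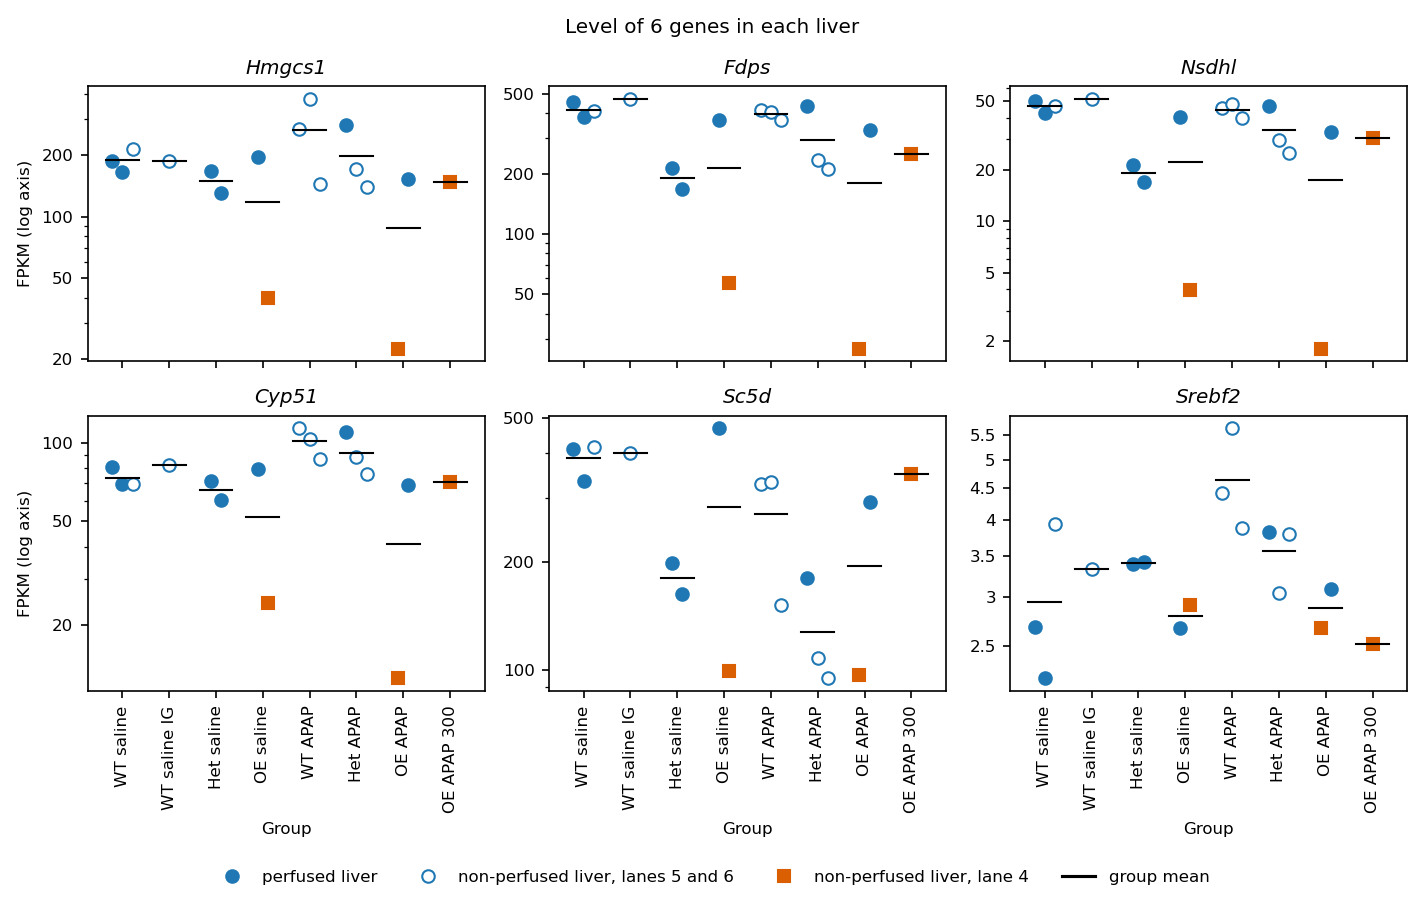
FPKM on a log axis for 6 genes in each of the 17 livers, by group; filled circles are perfused livers, open circles non-perfused livers of lanes 5 and 6, orange squares the non-perfused livers of lane 4, and lines group means. For Hmgcs1, Fdps, Nsdhl and Cyp51, 2 of the 3 lane 4 livers lie below all others, while the OE liver given 300 mg/kg does not; Srebf2 shows no such gap.

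The genes of SREBP2 control divided. Insig1, itself a target of SREBP2, was at 51.6 FPKM in OE APAP 1 and 84.4 in OE saline 2, against a lowest value of 98.1, a median of 231 and a highest of 350. Srebf2 was at 2.67 and 2.91 FPKM within a range of 2.21 to 5.63, Scap at 17.7 and 18.6 within 10.3 to 27.8, and Insig2, the second INSIG gene, at 59.6 and 61.3 within 48.6 to 267. Srebf2 and Scap were 2-fold lower in neither low liver than in its group partner. Insig2, within the wide range of all livers, was lower in OE APAP 1 than in OE APAP 2 (128.5 FPKM) by 1.10 on the log2 scale and differed by -0.29 between OE saline 2 and OE saline 1. The highest Insig2 value, 267 FPKM, came from the single liver Het APAP 2, and the next was 138.

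Among the transport genes, Npc2, a sterol carrier of the lysosome, was at 10.2 and 10.9 FPKM against 11.9 to 20.5, and Tmem97, which binds NPC1, at 25.4 and 33.1 against 33.4 to 76.2. Both were below all other livers by a narrow margin. Stard4, a cytosolic sterol carrier, at 12.7 and 14.7 FPKM, Npc1, the lysosomal sterol exporter, at 17.1 and 15.6, and Mylip, at 2.64 and 2.90, lay inside the range of the others.

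Single pairs of OE livers were also compared, without the other genotypes. The 2 low livers were picked by their values in these same genes, so the counts below describe them and give no separate support. OE saline 2 was at least 2-fold lower than OE saline 1 in 18 of 28 genes (median difference -1.39 on log2(FPKM + 1), 5.2% of all genes tested), and OE APAP 1 was so against OE APAP 2 in 19 (median -1.59, 5.02%). Those pairs differ in lane and perfusion as well, and OE APAP 2 was aged 12 weeks where OE APAP 1 was aged 11. The OE liver given 300 mg/kg shares genotype label, lane 4 and lack of perfusion with the low livers. It differs from them in dose and in age, 12 weeks against 11. Against it, OE APAP 1 was at least 2-fold lower in 20 genes (median -1.59, 5.77%) and OE saline 2 in 13 (median -0.94, 6.12%). Within lane 8, none of the 28 genes was 2-fold lower in OE APAP 2 than in OE saline 1 (median -0.27, 1.68% of all genes tested). Within lane 4, OE APAP 1 was at least 2-fold lower than OE saline 2 in 6 genes (median -0.40, 1.49%). The low level was therefore not shared by the third lane 4 liver, and what set the low livers apart was not tested.

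**Figure D3:**
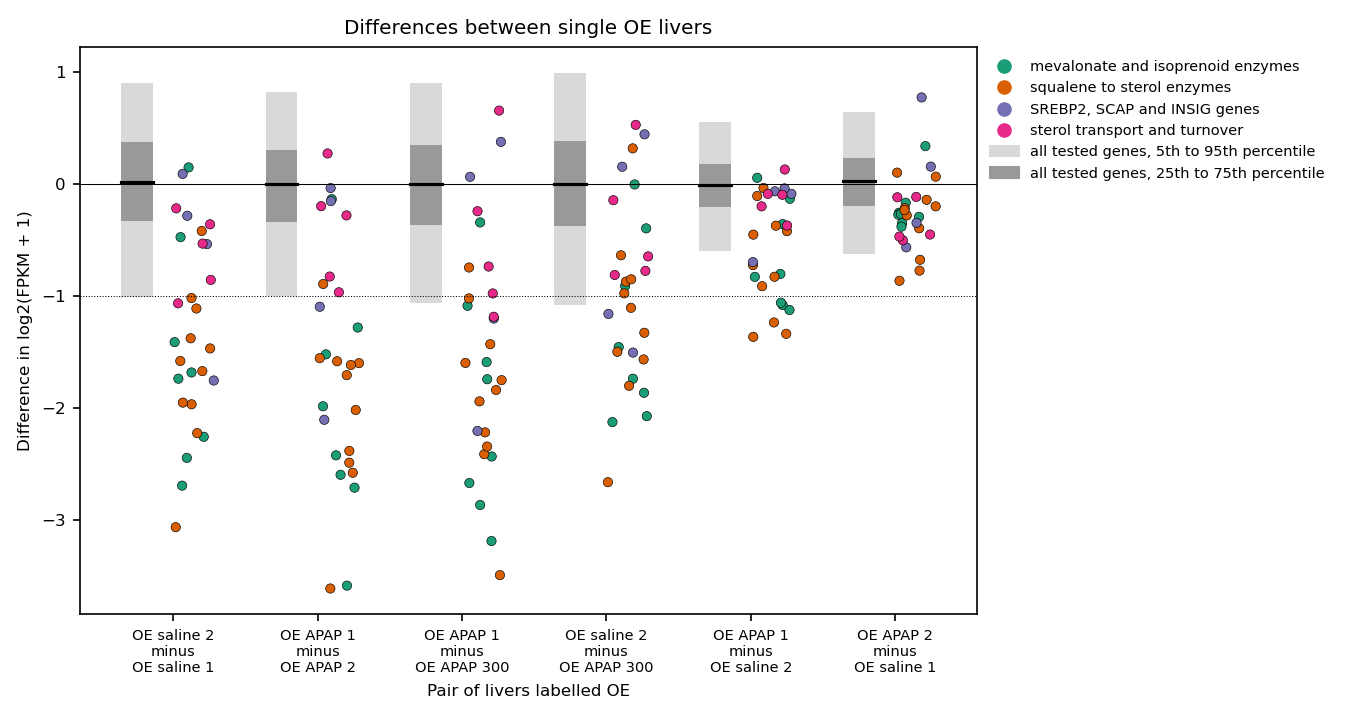
Difference in log2(FPKM + 1) between 2 single OE livers, for 6 pairs; points are the 28 genes coloured by role and placed with a random sideways shift, grey boxes the 5th to 95th and 25th to 75th percentile of all 11034 genes tested, black bars their median, and the dotted line a 2-fold lower level. In the 4 pairs on the left most enzymes lie below -1 while the median of all genes is near 0; in OE APAP 2 minus OE saline 1, both of lane 8, none does.

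Other gene groups in the same livers were read from lists of related pathways. The SREBP machinery list holds 11 genes (the proteases and ubiquitin ligases around SCAP and INSIG) and the isoprenoid branch list 11 (prenylation, dolichol and ubiquinone). No gene of either list was 2-fold lower in either low liver than in its group partner. Of all genes tested, 5.2% were so in OE saline 2 and 5.02% in OE APAP 1, so none of 11 is near that share. In OE APAP 1, 2 SREBP machinery genes were 2-fold higher than in OE APAP 2. The 95th percentile of all genes tested was 0.81 on the log2 scale there. Of 14 tested genes of SREBP1 and fatty acid synthesis, 9 were 2-fold lower in OE saline 2 than in OE saline 1 and 8 in OE APAP 1 than in OE APAP 2. Scd1, the stearoyl-CoA desaturase, was at 48.6 FPKM in OE saline 2 and 74.8 in OE APAP 1, against 103 or more in the others. Cell markers moved as well: the 9 Kupffer cell markers, none at 0 in any liver, summed to 132 and 139 FPKM in OE saline 2 and OE APAP 1, against 282 in each of OE saline 1 and OE APAP 2 and 252 in the OE liver at 300 mg/kg. Of the other marker lists, 4 of 8 stellate and matrix genes, 3 of 9 macrophage genes and 2 of 4 tested neutrophil genes were 2-fold lower, and 4 of 7 pericentral genes 2-fold higher, in OE saline 2 than in OE saline 1. In OE APAP 1 against OE APAP 2, 1, 4 and 3 genes of the first 3 lists were 2-fold lower. For the pericentral count, the 95th percentile of all genes tested in OE saline 2 minus OE saline 1 was 0.90 on the log2 scale. Of the 8 acute phase genes, 5 were 2-fold lower in OE saline 2 than in OE saline 1. In OE APAP 1 against OE APAP 2, 7 of these 8 were. In each of these pairs, 3 of 13 genes of LXR targets, sterol export and storage and 2 of 8 periportal genes were also 2-fold lower. The lowest Kupffer marker sum of all livers, 107 FPKM, was that of WT APAP 2. The hepatocyte markers held 14436 FPKM in OE saline 2 and 12541 in OE APAP 1, close to the 14880 and 12438 of their partners, and none of the 7 tested was 2-fold lower in either. The part of the acute phase and cell marker differences in the low sterol genes was not tested.

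The promoters of the 28 genes were also searched (RefSeq starts, 250 bases before to 50 after, GRCm38.p6). Of the 28 genes, 23 had 29 promoters in the table used; Fdps, Fdft1, Sqle, Stard4 and Npc1 had none there. The CCAAT box, which the factor NF-Y binds beside SREBP at many sterol genes, was found on either strand in 21 of the 29 promoters (72.4%) and in 37.4% of all 32851 promoters of the same length. The GC box GGGCGG, bound by Sp1 and its relatives, was found in 24 of 29 (82.8%), against 35.7% of all. The sterol element written TCACNCCAC was found in 1 of 29, that of Hmgcs1, and in 1.24% of all. The table also holds non-coding and predicted genes, so these shares are descriptions of letters and not of binding. Counted by gene, 21 of the 23 had the CCAAT box, which was not found for Acat2 and Scap. Acat2 was below every other liver in both OE APAP 1 and OE saline 2, and Scap was not. The box was found for Ggps1, Srebf2, Insig2, Mylip, Ebp, Hsd17b7 and Sc5d, which were not below every other liver in both. The box thus did not divide the low genes from the rest, and whether these letters bear on the low level was not tested. For 4 enzymes whose stretch lies wholly before the annotated gene, 60 bases are shown on the gene's strand, with CCAAT (read here as ATTGG, its complement on the other strand) and the sterol element in capitals. They are shown because all 4 genes were lowest in OE APAP 1 and OE saline 2. Their places are chr13:119690174-119690233, chr5:114444119-114444178, chr10:76531513-76531572 and chrX:72918382-72918441, all on the plus strand.
Hmgcs1: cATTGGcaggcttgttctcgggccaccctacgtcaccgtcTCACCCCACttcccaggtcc
Mvk: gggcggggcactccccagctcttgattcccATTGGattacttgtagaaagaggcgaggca
Lss: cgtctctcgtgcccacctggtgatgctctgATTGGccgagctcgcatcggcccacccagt
Nsdhl: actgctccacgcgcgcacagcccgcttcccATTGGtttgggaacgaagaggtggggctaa
The 3 stretches of Mvk, Lss and Nsdhl hold a CCAAT box and no sterol element of that spelling, and that of Hmgcs1 holds both.

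The response to APAP was tested with limma on log2(FPKM + 1) in a model of the 8 groups that also held perfusion, with Benjamini-Hochberg adjustment over all 11034 genes. Averaged over WT, Het and OE, no sterol enzyme passed in either direction. Mylip fell by 0.43 ± 0.13 (SE), with an adjusted p of 0.028, and was the only 1 of the 28 genes called, where 13.4% of all genes were called lower. Mylip (chromosome 13, 45389742 to 45412022) was at 3.21, 3.05 and 3.92 FPKM in WT saline, 4.24 and 4.31 in Het saline and 3.54 and 2.90 in OE saline. After APAP it was at 3.04, 1.55 and 2.03 FPKM in WT, 2.08, 2.48 and 2.52 in Het and 2.64 and 3.18 in OE, so that the groups overlapped in OE and not in WT or Het. The median of the 28 genes was 0.15, against -0.02 for all genes tested, but -0.11 with no perfusion term and -0.13 without OE APAP 2. Mylip lost its call without WT saline 3, either Het saline liver, Het APAP 1 or OE APAP 2 (adjusted p between 0.060 and 0.11). Without WT saline 3, the only non-perfused liver of its group, 9 members were called higher, and without the liver OE APAP 1, 2 were called higher and 1 lower. In the same comparison all 8 acute phase genes were called higher and 6 of 7 tested pericentral genes lower, and their part in the change of Mylip was not tested.

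Within the livers labelled WT, none of the 28 genes was called by limma (3 had an unadjusted p under 0.05), where 5.92% of all genes were called in either direction. Cyp51 was at 80.8, 69.5 and 69.9 FPKM after saline and at 114, 104 and 87.0 after APAP, without overlap; the 95% interval of its fitted log2 difference was 0.25 to 2.03, with an adjusted p of 0.118. Hmgcs1 was at 187, 166 and 214 FPKM after saline and at 269, 379 and 145 after APAP, so the groups overlapped. The late enzyme Tm7sf2 went the other way in the raw values, with 84.4, 65.1 and 79.2 FPKM after saline and 53.0, 44.8 and 42.6 after APAP. Only Cyp51 was higher without overlap, 1 of the 28 genes, against 16.5% of all genes tested. Tm7sf2, Sc5d, Tmem97 and Mylip were lower without overlap, 4 of 28 against 21.8%. Both counts are smaller shares than the background. The median of the 28 genes was 0.42 with the perfusion term, but -0.11 without it and -0.19 within non-perfused livers, where only WT saline 3 stands for saline. Without WT APAP 1, 1 member was called lower.

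Within the livers labelled Het, Mylip fell by 0.68 ± 0.21 (adjusted p = 0.038) and was again the only member called, where 13.3% of all genes were called lower. This call was lost with lane in place of perfusion (adjusted p = 0.078) and without any 1 of the 8 WT saline, Het saline or Het APAP livers (adjusted p between 0.054 and 0.149). Nsdhl was at 21.2 and 16.9 FPKM after saline and at 47.0, 29.6 and 25.1 after APAP, without overlap, a difference of 1.85 ± 0.74 (adjusted p = 0.10). Fdps was at 215 and 167 FPKM after saline and at 436, 234 and 211 after APAP, which overlapped (1.64 ± 0.67, adjusted p = 0.101). The highest value of both genes came from Het APAP 1, the perfused liver of lane 8, the lane of both Het saline livers. Without overlap, 5 of the 28 genes were higher after APAP (Ggps1, Cyp51, Nsdhl, Dhcr7 and Npc2) and 5 lower (Tm7sf2, Msmo1, Stard4, Npc1 and Mylip), against 25.5% and 33.4% of all genes tested. Both counts are smaller shares than the background. The median of the 28 genes was 0.26, 0.15 within lane 8 and 0.02 with no perfusion term, and 0.52 without Het APAP 1. Without WT saline 3, 9 members were called higher, and with lane in place of perfusion Nsdhl and Fdps were called higher. With each liver left out in turn, 925 to 2621 of all genes were called in Het, and under the other alternatives 859 to 2700.

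Within the livers labelled OE, none of the 28 genes was called by limma, none had an unadjusted p under 0.05, and 0% of all genes were called. The median was -0.47, with 25 of 28 differences below 0. It was -0.40 between the 2 lane 4 livers and -0.27 between the 2 lane 8 livers. Without OE APAP 1 it was 0.18, and without OE APAP 2 -1.09. The responses of the genotypes were compared with each other by interaction terms, in which no member was called by limma. For Het against WT 1 member had an unadjusted p under 0.05 (0% of all genes called), for OE against WT 3 members (0%), and for OE against Het 5 members (0.0181%). Cyp51 had the smallest p of the last comparison, with a difference of -1.69 ± 0.63 (adjusted p = 0.184). Without OE APAP 2, whose group was then OE APAP 1 alone, 3 members were called lower in OE against Het.

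Genes of related pathways were called in both directions in the averaged response, where 9.96% of all genes were called higher and, as above, 13.4% lower. Of 11 genes of the SREBP machinery 3 fell, among them the membrane protein gene Pgrmc1 by 0.70 and the ubiquitin ligase gene Rnf139 by 0.33, and none rose. Of 13 genes of LXR targets, sterol export and storage, Soat1, which esterifies cholesterol (0.95), and Scarb1, the receptor of high-density lipoprotein (0.27), rose and Nr1h3, which encodes LXR alpha, fell by 0.38. Of 9 tested genes of sterol uptake and transport 1 fell (Lrpap1, by 0.38), and of 11 of the isoprenoid branch Dhdds rose (0.38) and Rabggta fell by 0.46. Of 14 genes of SREBP1 and fatty acid synthesis 3 fell, Aacs, which activates acetoacetate for lipid synthesis, by 1.33, Elovl6, a fatty acid elongase, by 0.94, and Me1, the malic enzyme, by 0.87. The list medians were -0.14, 0.01, -0.02, -0.03 and -0.34, against -0.02 for all genes.

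**Figure D4:**
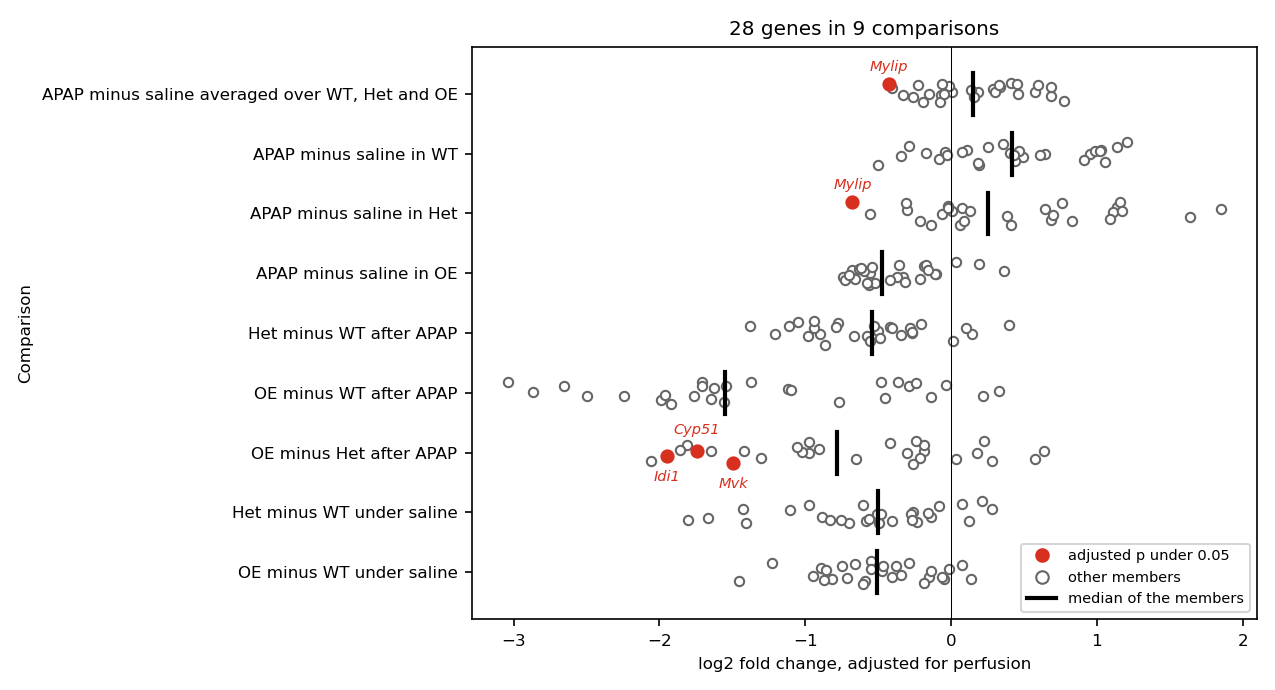
Log2 fold change from limma, adjusted for perfusion, of the 28 genes in 9 comparisons (rows); red points passed an adjusted p of 0.05, open points did not, black bars are medians, and the vertical position within a row is random. Mylip in 2 rows and Idi1, Cyp51 and Mvk in OE minus Het after APAP are the called genes; the medians range from -1.55 to 0.42.

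After APAP, the livers labelled OE were compared with those labelled Het, and 3 mevalonate or sterol enzymes were lower in OE. Cyp51 was at 12.5 and 69.1 FPKM in OE against 110, 88.2 and 75.9 in Het (-1.74 ± 0.40, adjusted p = 0.018). Idi1 was at 12.6 and 81.3 FPKM against 136, 125 and 85.8 (-1.95 ± 0.47, adjusted p = 0.023). Mvk was at 3.20 and 15.6 FPKM against 27.8, 17.3 and 17.4 (-1.50 ± 0.38, adjusted p = 0.025). In each case the OE values did not overlap the Het values. The higher OE value, from OE APAP 2, was close to the lowest Het value. These 3 of the 28 genes were the members lower without overlap, against 17.1% of all genes tested. Another 2 members, Scap and Mylip, were higher without overlap, against 23.4%. Both counts are smaller shares than the background. No member was called higher, 5.12% of all genes were called lower, and the median of the 28 genes was -0.78. Sqle (adjusted p = 0.052), Hmgcs1 (0.058) and Nsdhl (0.067) missed the threshold with differences of -1.64, -1.86 and -2.06. In related lists, where 8.87% of all genes were called higher, 5 of 11 SREBP machinery genes were higher in OE, among them Marchf6 (0.63), Rnf145 (0.83) and Aup1 (0.53), as were 3 of 13 LXR targets (Nr1h3 0.67, Lcat 0.71, Abcg5 1.06) and 2 of 14 fatty acid synthesis genes (Fads2 1.98, Elovl5 1.81). None of the 9 tested sterol uptake or 11 isoprenoid genes was called by limma in either direction (2 of each had an unadjusted p under 0.05). Rnf145 was at 12.2 and 4.96 FPKM in OE against 4.20, 3.85 and 4.52 in Het, so that OE APAP 1 stood apart there.

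Markers of infiltrating macrophages moved with this comparison: 7 of 9 were called lower in OE, their summed level was 51.4 and 140 FPKM in OE against 232, 367 and 340 in Het, and none was at 0. Hepatocyte markers were called higher in 3 of 7, with sums of 12541 and 12438 FPKM in OE against 7651, 6392 and 6179 in Het, pericentral genes in 3 of 7 and periportal genes in 5 of 8. The part of these shifts in the result was not tested. The 3 calls rested on OE APAP 1 and on the perfusion term. No member was called with lane in place of perfusion or with no such term. Without OE APAP 1 no member was called, 4 of all genes were, the median of the 28 genes was -0.11, and the differences were -0.81 for Cyp51, -0.89 for Idi1 and -0.72 for Mvk. Within lane 8, between OE APAP 2 and Het APAP 1, they were -0.67, -0.73 and -0.80, with a median over the 28 genes of -0.25, and within non-perfused livers the median was -1.22. No member was called without Het APAP 2 or Het APAP 3 either, while 5 were called without WT saline 2 and 10 without WT saline 3. With each liver left out in turn, 4 to 1915 of all genes were called.

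Against the livers labelled WT, the OE livers after APAP showed larger differences, none of which was called by limma (20 of 28 genes had an unadjusted p under 0.05, and 0.0272% of all genes were called). Nsdhl was at 1.80 and 33.1 FPKM in OE against 45.8, 48.5 and 39.8 in WT, a difference of -3.04 ± 0.71 (95% interval -4.62 to -1.46, adjusted p = 0.117). Fdps was at 26.7 and 331 FPKM against 413, 405 and 372 (-2.86 ± 0.64, adjusted p = 0.113). Hmgcs1 was at 22.5 and 153 FPKM against 269, 379 and 145, which overlapped. Without overlap, 11 of the 28 genes were lower in OE (Acat2, Mvk, Mvd, Idi1, Fdps, Fdft1, Sqle, Cyp51, Nsdhl, Dhcr7 and Srebf2), against 11.1% of all genes tested. Ggps1 was higher without overlap, 1 of 28 against 16.2%. The median was -1.55. It was -0.28 without both OE APAP 1 and OE saline 2, a setting chosen after seeing the data, -0.71 without OE APAP 1 and -1.95 without OE APAP 2. The count of members called was 16 without WT saline 3 and 9 without OE APAP 2.

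The livers labelled Het were lower than those labelled WT after APAP in 24 of 28 genes, by a median of -0.54, but no member was called by limma (9 had an unadjusted p under 0.05, and 0.0544% of all genes were called). Ebp, the sterol isomerase, was at 97.7, 52.3 and 55.2 FPKM in Het against 138, 113 and 83.0 in WT (-0.94 ± 0.24, 95% interval -1.45 to -0.43, adjusted p = 0.069). Sc5d was at 181, 109 and 95 FPKM against 328, 333 and 152 (-1.38 ± 0.43, adjusted p = 0.112). Insig1 was at 212, 101 and 98.1 FPKM against 231, 333 and 163 (-1.20 ± 0.43, adjusted p = 0.160). All 3 genes overlapped between the groups through Het APAP 1 and WT APAP 3. Without overlap, Tm7sf2, Dhcr7, Srebf2 and Scap were lower in Het, 4 of 28 against 11.4% of all genes. Ggps1 was higher, 1 of 28 against 9%. Within lane 5, which holds all 3 WT APAP livers and 2 of the 3 Het APAP livers, the median was -0.54. With lane in place of perfusion 8 members were called lower (Acat2, Tm7sf2, Ebp, Nsdhl, Sc5d, Tmem97, Insig1 and Fdps). Without WT saline 3, WT APAP 3 and Het APAP 1, 6, 3 and 1 were called lower. With each liver left out in turn, 1 to 857 of all genes were called, and under the other alternatives 1 to 769.

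Under saline the livers labelled Het again had lower values than those labelled WT, in 24 of 28 genes, with a median of -0.50. Fdps was at 215 and 167 FPKM in Het against 454, 383 and 409 in WT (-1.67 ± 0.62, adjusted p = 0.343). Nsdhl was at 21.2 and 16.9 FPKM against 50.5, 42.6 and 47.2 (-1.81 ± 0.69, adjusted p = 0.352). Sc5d was at 198 and 163 FPKM against 409, 335 and 416 (-1.43 ± 0.48, adjusted p = 0.291). The Het values lay below all WT values in these 3 genes and in 12 of the 28 in all, against 19.2% of all genes tested; the others were Acat2, Pmvk, Ggps1, Tm7sf2, Ebp, Scap, Insig2, Npc1 and Tmem97. Msmo1 and Mylip were higher in Het without overlap, 2 of 28 against 20.4%. Msmo1 was at 249 and 214 FPKM in Het against 201, 141 and 200 in WT. No member was called by limma (8 had an unadjusted p under 0.05, and 0.0363% of all genes were called). Both Het saline livers were perfused and in lane 8, and no WT liver was in that lane, so lane and genotype label cannot be told apart here. Within perfused livers the median was -0.24, without the perfusion term -0.32. The perfused WT saline livers were aged 12 weeks and both Het saline livers 11. Within perfused livers, age and genotype label thus cannot be told apart either.

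The OE livers under saline split as described above, and no member was called against WT by limma (2 had an unadjusted p under 0.05, and 0.0363% of all genes were called). Acat2 was at 37.6 and 11.0 FPKM in OE against 42.9, 38.2 and 48.5 in WT (-0.89 ± 0.35, adjusted p = 0.745). The median of the 28 genes was -0.51. It was 0.06 within perfused livers, which leave OE saline 1 for OE, and -1.48 within non-perfused livers, which leave OE saline 2 against WT saline 3.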

How the data were processed

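Per the labels' protocols, 17 paired-end libraries were made from mouse liver RNA with a kit that keeps strand. The submitters' processing notes name bcl2fastq 2.17.1.14, TopHat2 2.0.9, Cufflinks 2.2.1, Cuffdiff and the build GRCm38 p5; a version of Cuffdiff and the annotation are not given in the sources used here. In the table that the authors deposited, each gene has 1 value in each library, taken to be FPKM because of these tools and the values themselves; its header names no unit. Sums of FPKM per library were between 466883 and 916006. The sequencing depth is unknown: steps between low values gave no common depth for 25 of 136 library pairs within 0.3 on the log2 scale, so no counting interval is given and no count test was run. No 2 libraries were duplicates, the smallest median absolute log2 difference being 0.134.

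Gene IDs were matched to GENCODE (GRCm38) for symbols and positions. A gene listed at 0 in every library of 1 genotype and treatment, and at 10 FPKM or more elsewhere, was treated as a failed estimate and left out (185 genes, and 20 neighbours within 100 kb with the same zeros); none of the 28 was among them. The test used log2(FPKM + 1) and a minimum mean of 1 FPKM, which left 11034 with all 28 members, so the minimum removed none. limma 3.58.1 (statmod 1.5.0, R 4.3.3) fitted 8 group means and perfusion with a trended, robust variance prior and 8 residual degrees of freedom; the false discovery rate was 0.05. Group counts without overlap and values by single liver carry no test. The single livers given saline by IG or 300 mg/kg APAP were groups of their own.

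The members, the lists of related pathways and cell markers, and the design were chosen with earlier results of these data known. All 28 members are named, with up to 4 called genes of each related list. The values of 1 gene of the SREBP machinery list are not reported here. Alternatives were another pseudocount, no minimum mean, quantile normalisation, no perfusion term, lane in place of perfusion where it could be estimated, the rare labels pooled, no genes removed as failed estimates and each library left out in turn. Promoters are those of RefSeq, GRCm38.p6.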

Additional observations from a re-analysis of the deposited data

Results flagged for a closer look

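In the OE liver given 300 mg/kg APAP, which enters no comparison between groups, 2 of the 28 genes lay above all 8 saline livers. How many of all genes tested did so was not counted, so these 2 cannot be read against a background. Ggps1 was at 4.18 FPKM there, and its highest saline value was 3.32. Insig2 was at 138 FPKM, and its highest saline value was 122. With a single liver at this dose there is no replicate check. Het APAP 2 and Het APAP 3 at 200 mg/kg held higher Ggps1 values (4.52 and 4.20 FPKM), and Het APAP 2 the highest Insig2 value of all (267 FPKM). OE APAP 2, also at 200 mg/kg, was above the highest saline value in both genes (3.48 and 128.5 FPKM). WT APAP 1 was so in Insig2 (128.3 FPKM).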

How the results depend on the processing

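Counts of members called were compared under the alternatives, and none of the differences given above changed direction while called. The averaged response had 1 member called, and 0 with no minimum mean, 2 with quantile normalisation and 2 without both OE saline 2 and OE APAP 1 (chosen after seeing the data). The Het response had 1, and 0 with no minimum mean, 2 with quantile normalisation, 2 with lane in place of perfusion and 2 without both livers. OE minus Het after APAP had 3, and 0 with no minimum mean, with no perfusion term, with lane or without both livers, 10 with quantile normalisation, and 1, higher (Ebp, 0.79), with the rare labels pooled. Het minus WT after APAP had 0, and 8 with lane in place of perfusion. With single libraries left out, the counts were 0 to 9 for the averaged response, 0 to 1 in WT, 0 to 9 in Het, 0 to 6 for Het minus WT, 0 to 16 for OE minus WT and 0 to 10 for OE minus Het after APAP, and 0 to 3 for the OE response minus the Het response; the other 5 comparisons had 0 throughout. The count of all genes called moved as well. With single libraries left out it was 891 to 2710 for the averaged response, 145 to 980 in WT and 925 to 2621 in Het. After APAP it was 1 to 857 for Het minus WT, 0 to 98 for OE minus WT and 4 to 1915 for OE minus Het. Under the other alternatives OE minus Het had 0 to 2258. The members' counts were not set against the share of all genes in each fit. The cause of these shifts was not tested. Lane could not be estimated beside WT saline, which shares no lane with another replicated group.

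No paired analysis was possible because the replicate numbers are names given in accession order and pair no samples. FPKM without depth set no limit of detection, and groups of 2 or 3 livers leave 8 residual degrees of freedom, so that a difference which missed the threshold is not shown to be absent.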

Other observations

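The WT liver given saline labelled IG was the highest of the 17 in 7 of the 28 genes, with Fdps at 474 FPKM, Pmvk at 80.1 and Nsdhl at 51.9. The share of all genes tested that were highest in that liver was not counted. Its median over the 28 genes was 0.44 above the mean of the 17 livers on the log2 scale. The 3 other WT saline livers had medians of 0.36, 0.12 and 0.45. The same liver had the highest level of Scd1 (1793 FPKM) and Fasn, the fatty acid synthase (365 FPKM), against at most 1272 and 227 in the others. The OE liver given 300 mg/kg APAP was neither highest nor lowest in any of the 28 genes, while 10.8% of all genes tested were lowest there.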
